A study of Mus musculus with 21 samples.

Results

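The 6 entries described here are noncoding transcripts listed on either side of Pou3f3 (Brn1) on mouse chromosome 1: linc-Brn1b, AK011913, 2610017I09Rik, 2900092D14Rik, linc-Pou3f3-1 and linc-Pou3f3-6. They are 6 of 40770 entries in the expression table of the linc-Brn1b strain, and they were chosen by name, for their position near linc-Brn1b and for their FPKM values in the knockout and wild-type groups of that strain. The differences between those groups are therefore given as a description. Pou3f3 encodes Brn1, a POU-domain transcription factor of neural progenitors and upper-layer cortical neurons. Long noncoding RNA genes often lie beside genes of developmental transcription factors, where the RNA, its transcription or DNA elements within the gene can affect the coding neighbour. 2610017I09Rik is also known as linc-Brn1a or Pantr1, and linc-Brn1b as Pantr2.

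RNA-Seq was carried out on linc-Brn1b+/+ (wild-type) and linc-Brn1b-/- (knockout) mice, with telencephalon taken at the embryonic ages E13.5 and E15.5 and the whole brain at postnatal day 7 (P7). Each of these 6 groups had 2 libraries, except that the labels list 3 knockout libraries at E15.5. The study's own description counts fewer there, and which of them entered the E15.5 knockout values cannot be told. In the same series, E18.5 brain of the linc-Sox2 (Peril) strain and E14.5 lung of the linc-Foxf1a (Fendrr) strain each had 2 wild-type and 2 knockout libraries. In all 3 strains the lincRNA gene was replaced in hybrid embryonic stem cells by a lacZ and neomycin resistance cassette, and the mice were backcrossed once to C57BL/6J, so that a foreign transcription unit stood in the knockout locus and the flanking DNA could differ in strain of origin between genotypes. The deposited tables give 1 FPKM value (fragments mapped, scaled by transcript length and by the size of the library) for each group and none per library. The spread between animals and the number of reads behind a value are unknown, and no difference below was tested against replicate error.

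The telencephalon markers Emx1, Emx2, Lhx2, Dlx1 and Dlx2 were all detected in each group of the linc-Brn1b strain, at 14.2 to 150 FPKM in the embryonic groups and at 2.91 to 30.2 FPKM at P7. Genotypes also differed in ways other than the deletion. Among Y-linked genes, Eif2s3y, Ddx3y, Uty and Kdm5d summed to 49.2 FPKM (wild type) and 0.0133 FPKM (knockout) at E13.5, but to 0.00662 and 21.0 FPKM at E15.5 and 0.0357 and 23.2 FPKM at P7, so that at each age the sex of the animals and their genotype cannot be told apart, with the higher Y-linked level in wild type at E13.5 and in knockout at the later ages. The choroid plexus genes Ttr and Folr1 summed to 235 FPKM (wild type) and 1.68 FPKM (knockout) at E15.5, against 149 and 191 FPKM at E13.5. At P7, the oligodendrocyte genes Mbp and Mog were listed at 292 and 6.89 FPKM in wild type and at 161 and 4.08 FPKM in knockout, and 4 hindbrain and midbrain genes (En1, En2, Hoxb2, Pax2) summed to 5.21 FPKM (wild type) and 1.27 FPKM (knockout), with Hoxb2 listed at 0 in the knockout. Also at P7, the radial glia and progenitor genes Sox2, Pax6, Hes5, Vim, Nes and Fabp7 summed to 1039 FPKM (wild type) and 587 FPKM (knockout). Fabp7 made up 919 and 508 FPKM of these sums, and Pax6 was listed at 15.3 and 5.43 FPKM. Hes5 was higher in the knockout (10.9 and 12.8 FPKM), whereas the other genes of this list were lower. At E13.5 the sum of the 2 listed erythroid genes was 112 FPKM (wild type) and 41.2 FPKM (knockout), with Alas2 at 5.64 and 6.41 FPKM. The part of tissue makeup in the values below was not tested.

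On mm9, the build of the tables, the listed spans follow each other along chromosome 1 as linc-Pou3f3-6 (chr1:41799845-41999104), linc-Pou3f3-1 (chr1:42643840-42687203), 2610017I09Rik (chr1:42705045-42751670), Pou3f3 (chr1:42753991-42757054), 2900092D14Rik (chr1:42757181-42760021), and then linc-Brn1b and AK011913, which share 1 span (chr1:42763906-42770299). GENCODE for this build places Pou3f3, a gene of 1 exon, on the plus strand. It annotates 2610017I09Rik on the minus strand as a protein-coding gene of 3 exons between 42705223 and 42723757, which is shorter than the listed span, whereas RefSeq lists it as a lncRNA. The listed first base of 2610017I09Rik lies 2321 bp from that of Pou3f3, and the 2 genes point away from each other. 2900092D14Rik begins 126 bp after the listed end of Pou3f3 on the same strand, and 3884 bp separate it from linc-Brn1b.

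**Figure D1:**
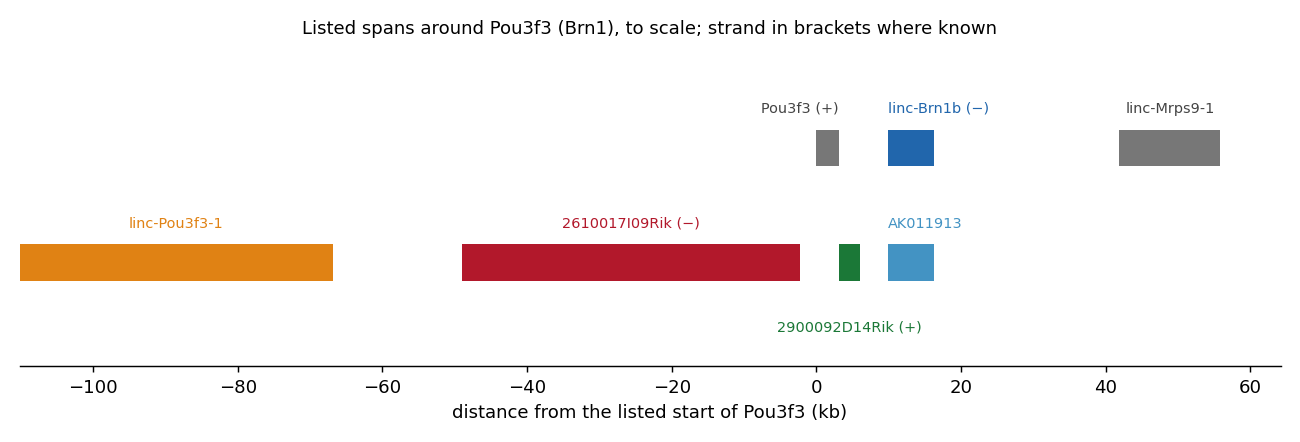
Listed spans of 5 of the 6 noncoding entries, of Pou3f3 and of linc-Mrps9-1, drawn to scale against the distance in kb from the listed start of Pou3f3, with the strand in brackets where a source gives it. 2610017I09Rik lies on one side of Pou3f3, and 2900092D14Rik, linc-Brn1b and AK011913 lie on the other. linc-Pou3f3-6 is off the scale, 754886 bp from Pou3f3.

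The study's designed oligonucleotides fixed the strand of linc-Brn1b, which the tables do not give. Its single-molecule FISH probes, which are antisense to the RNA, comprised 20 oligonucleotides, of which 18 matched the mm9 genome once, all of them on the plus strand of chromosome 1. linc-Brn1b is thus read from the minus strand, towards Pou3f3, and its listed first base lies 16308 bp from that of Pou3f3. The outermost probe ends 243 bp beyond the listed first base. The remaining 2 probes had no unbroken match and are shown because each could be placed across an inferred splice junction. The bases of the exon nearer the 5′ end of the RNA are in capitals. The junctions were not checked against reads or annotation. Probe 13 joins 42765263 to 42769048 over an intron of 3784 bp, and probe 16 joins 42764103 to 42765202 over an intron of 1098 bp. The splits were required to leave an intron with GT and AG ends on the minus strand. For probe 13, whose shorter part has 5 bases, 2 splits were possible, and the one next to a neighbouring probe was taken.

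FISH probe 13: aaggcCAAATGCCATGTCAA
FISH probe 16: gtgtcagctCTTACAGACAG

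The RT-PCR primers of linc-Brn1b lie on both sides of the larger inferred intron, between 42765214 and 42769088. RNA spliced there would give a product of 91 bp, and genomic DNA a product of 3875 bp. Those of 2610017I09Rik span 18538 bp, from 42705224 to 42723761. They are shown, 5′ to 3′, as the sequences the study designed to detect these 2 RNAs. Whether the linc-Brn1b primers also detect AK011913, which shares its span, cannot be told.

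linc-Brn1b RT-PCR forward: ttttccacgttctttttgctc
linc-Brn1b RT-PCR reverse: ccatctgcagggaaagttaca
2610017I09Rik RT-PCR forward: caacatggccgttcctaact
2610017I09Rik RT-PCR reverse: taggcactctgtccctctcc

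The loss-of-allele assays used to find targeted clones mark a point near each end of the listed span of linc-Brn1b. Their probes lie at chr1:42769983-42770005 and chr1:42764138-42764163, both on the minus strand and both inside the listed span.

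linc-Brn1b loss-of-allele probe near the 5′ end: tgggtgaccctcttccagcgaag
linc-Brn1b loss-of-allele probe near the 3′ end: caaagtgggcactgtgtctgacctgg

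The regions at the listed starts of the 2 minus-strand RNAs are shown. One belongs to the targeted gene. The other belongs to the RNA with the largest excess of knockout over wild-type FPKM at E15.5. The windows run from 250 bases before to 50 bases after the listed first base, written 5′ to 3′ on the minus strand with CpG dinucleotides in capitals (chr1:42770250-42770549 for linc-Brn1b, chr1:42751621-42751920 for 2610017I09Rik). The linc-Brn1b window is identical to the RefSeq promoter of Pantr2 (GRCm38.p6). FISH probe 1 (chr1:42770523-42770542) lies inside it, before the listed first base, so the RNA may begin further out than that base. No RefSeq promoter was at hand for 2610017I09Rik. GENCODE puts the first base of this gene at 42723757, outside its window.

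linc-Brn1b: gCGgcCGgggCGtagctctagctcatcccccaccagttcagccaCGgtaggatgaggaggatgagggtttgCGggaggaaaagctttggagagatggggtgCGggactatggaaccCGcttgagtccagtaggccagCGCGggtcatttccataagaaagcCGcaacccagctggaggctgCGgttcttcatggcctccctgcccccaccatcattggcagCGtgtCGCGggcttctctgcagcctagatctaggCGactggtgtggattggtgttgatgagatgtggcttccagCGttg
2610017I09Rik: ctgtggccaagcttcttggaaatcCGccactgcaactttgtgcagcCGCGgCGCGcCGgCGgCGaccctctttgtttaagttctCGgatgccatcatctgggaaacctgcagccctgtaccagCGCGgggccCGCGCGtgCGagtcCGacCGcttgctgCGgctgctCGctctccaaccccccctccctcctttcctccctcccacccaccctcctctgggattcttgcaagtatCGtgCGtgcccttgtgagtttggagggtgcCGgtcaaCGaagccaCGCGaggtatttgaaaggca

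The linc-Brn1b window had a GC content of 60.0% and 16 CpG, and the 2610017I09Rik window 62.7% and 25 CpG, against medians of 52.7% and 7 over 32851 RefSeq promoters of the same length. The window at the start of 2900092D14Rik (chr1:42756931-42757230, plus strand), also identical to its RefSeq promoter, overlaps the end of Pou3f3 and had 35.7% GC and 3 CpG, and 4.30% of RefSeq promoters had a lower GC content. Of the letters searched on both strands, CCAAT occurred 2 times in the linc-Brn1b window and in neither of the others, and it occurs in 37.4% of RefSeq promoters. TATAAA (13.6% of promoters), GGGCGG (35.7%) and the octamer ATGCAAAT (1.74%) occurred in none of the 3 windows.

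linc-Brn1b, the targeted RNA, was listed at 1.60 FPKM in wild-type telencephalon at E13.5, 2.50 FPKM at E15.5 and 0.799 FPKM in wild-type brain at P7. In the knockout it was listed at 0 at all 3 ages. AK011913, a cDNA entry over the same span, was listed at 8.71, 8.73 and 1.06 FPKM in wild type and at 0.0267, 0 and 0.0123 FPKM in knockout. Both entries at the deleted gene were at or near 0 in every knockout group, so no group went against its label. The level of AK011913 over that of linc-Brn1b in wild type was 5.44, 3.49 and 1.32 at the 3 ages. The tables share out reads between entries that overlap, and how the 2 entries divided theirs cannot be told from the values.

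2610017I09Rik, on the far side of Pou3f3, had the highest level of the 6 entries in every group. It was listed at 165 (wild type) and 245 FPKM (knockout) at E13.5, at 191 and 689 FPKM at E15.5, and at 79.7 and 453 FPKM at P7. The knockout level was 1.49, 3.62 and 5.68 times the wild-type level at the 3 ages. Ordered by level among all 40770 entries, it ranked 347 in wild type and 165 in knockout at E13.5, 282 and 78 at E15.5, and 933 and 75 at P7. Set among the 12907 entries whose names begin with linc-, it ranked 3 in wild-type and 1 in knockout telencephalon at E15.5. At E13.5 it ranked 5 in both genotypes, and at P7 it ranked 10 in wild type and 3 in knockout. Measured as knockout minus wild type, its difference of 499 FPKM at E15.5 and of 373 FPKM at P7 was the largest among the 14310 and 14959 entries with a higher value in the knockout. At E13.5 the difference of 80.5 FPKM ranked 11 among 16091 such entries. In bulk tissue, more cells of a type that holds an RNA and more RNA per cell cannot be told apart.

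linc-Pou3f3-1, the next entry on the same side, had far lower levels and the same direction. It was listed at 0.503 (wild type) and 1.18 FPKM (knockout) at E13.5, at 0.645 and 1.53 FPKM at E15.5, and at 0.319 and 2.49 FPKM at P7. The knockout level was 2.35, 2.38 and 7.81 times the wild-type level. On the log2 scale with a pseudocount of 0.1 FPKM these differences were 1.09, 1.13 and 2.63, and with a pseudocount of 1 FPKM they were 0.54, 0.62 and 1.40, so that the E13.5 and E15.5 differences did not pass the 2-fold line with the larger pseudocount. The entry lies 17841 bp beyond the listed last base of 2610017I09Rik, and its level was 0.222% to 0.550% of that of 2610017I09Rik in the 6 groups.

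linc-Pou3f3-6, 765 kb from linc-Brn1b, had no direction that held across ages. It was listed at 4.22 (wild type) and 8.43 FPKM (knockout) at E13.5, a log2 difference of 0.98, at 6.57 and 7.68 FPKM at E15.5 (0.22), and at 0.395 and 0.365 FPKM at P7. The P7 levels lay under 0.5 FPKM in both groups, the lowest level at which a difference was counted. At E13.5 the value lay just inside a 2-fold difference and that of linc-Pou3f3-1 just outside it.

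2900092D14Rik, which begins just after the end of Pou3f3 on the same strand, was lower in the knockout at all 3 ages. It was listed at 25.2 (wild type) and 10.6 FPKM (knockout) at E13.5, at 24.3 and 8.65 FPKM at E15.5, and at 10.5 and 2.72 FPKM at P7. The knockout level was 42.1%, 35.6% and 26.0% of the wild-type level. Pou3f3 itself was listed at 81.5 and 36.5 FPKM, at 82.5 and 29.2 FPKM, and at 22.7 and 5.81 FPKM, so that the knockout held 44.8%, 35.4% and 25.6% of the wild-type level.

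**Figure D2:**
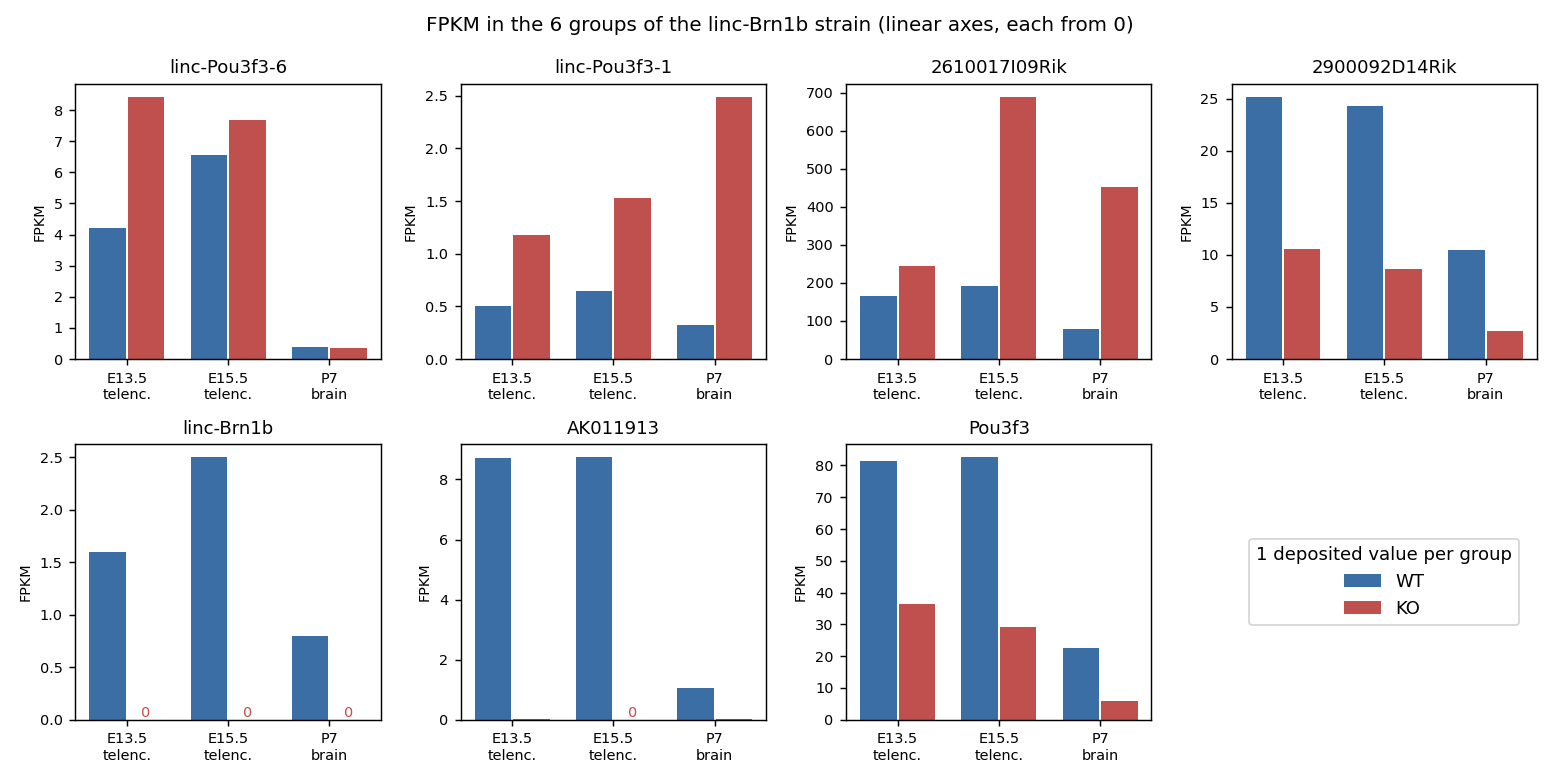
FPKM of the 6 noncoding entries and of Pou3f3 in wild type (WT, blue) and knockout (KO, red) of the linc-Brn1b strain, in telencephalon (E13.5, E15.5) or brain (P7); each bar is 1 deposited value per group, with no error, on a linear axis from 0 that differs between panels. 2610017I09Rik reached 689 FPKM in the E15.5 knockout, 2900092D14Rik and Pou3f3 were lower in each knockout group, and linc-Brn1b was listed at 0 in each.

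Within an age, 2900092D14Rik kept a nearly fixed proportion to Pou3f3 in both genotypes. As a ratio of FPKM, its level over that of Pou3f3 was 0.310 in wild type and 0.291 in knockout at E13.5, 0.294 and 0.296 at E15.5, and 0.462 and 0.469 at P7. The 2 values at each age lay closer to each other than the telencephalon and P7 brain values did. 2610017I09Rik, which starts close to Pou3f3 and points away from it, kept no such proportion. Its level was 2.02 times that of Pou3f3 in wild type and 6.72 times in knockout at E13.5, 2.31 and 23.6 times at E15.5, and 3.52 and 78.0 times at P7.

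**Figure D3:**
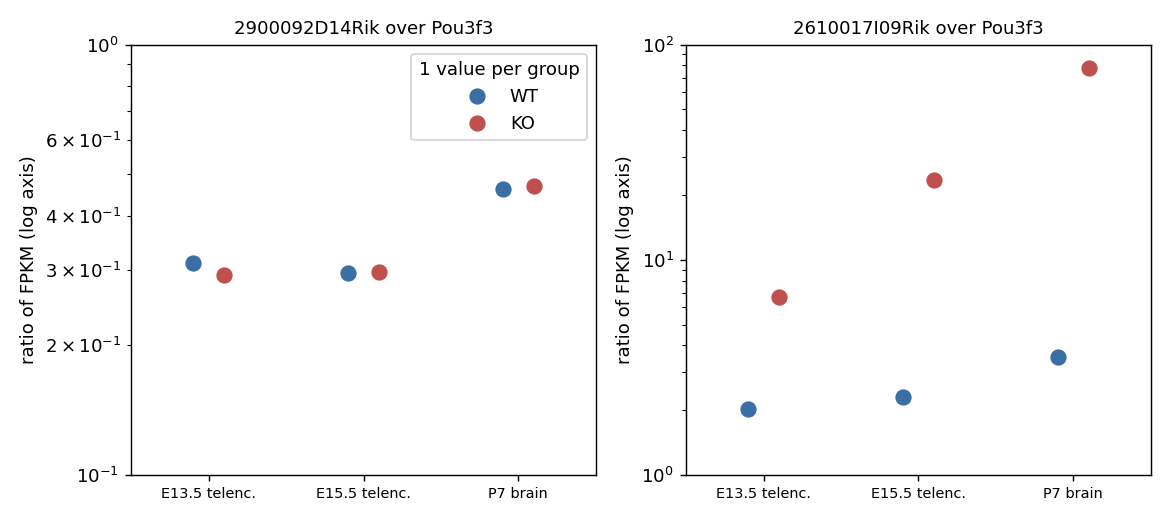
Level of 2900092D14Rik (left) and 2610017I09Rik (right) over that of Pou3f3 in the same group, as ratios of FPKM on log axes, for wild type (WT) and knockout (KO) of each age, with 1 value per group and no error. The ratio of 2900092D14Rik stayed between 0.291 and 0.469, whereas that of 2610017I09Rik was 2.02 to 3.52 in wild type and 6.72 to 78.0 in knockout.

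An entry was counted as past the fold where its log2((knockout + 0.1)/(wild type + 0.1)) was at least 1 or at most -1 and where it reached 0.5 FPKM in at least 1 of the groups compared. At E13.5, 1 of the 6 was higher (linc-Pou3f3-1) and 3 were lower (2900092D14Rik, linc-Brn1b and AK011913). Among all 15510 entries kept at that age, 1.14% were higher and 2.50% lower, and among the 1388 kept entries named linc-, 4.25% and 2.67%. At E15.5, 2 of the 6 were higher (2610017I09Rik and linc-Pou3f3-1) and 3 lower. Of all 15333 entries kept, 0.300% were higher and 0.424% lower, and of 1347 entries named linc-, 0.445% and 0.223%. At P7, 5 of the 6 were kept, of which the same 2 were higher and the same 3 lower. linc-Brn1b (0.799 and 0 FPKM) was no longer counted at P7 with a pseudocount of 1 FPKM or with entries kept at 1 FPKM or more, which left 2 higher and 2 lower. Of all 16335 entries kept, 1.19% were higher and 1.70% lower, and of 1325 entries named linc-, 3.62% and 3.17%. Since these differences chose the 6 entries, the shares are given for scale. linc-Brn1b and AK011913 share the span of the deleted gene, so the deletion fixed their lower values in advance. Outside that span, 2900092D14Rik was the only lower entry of the 6 at each age. The median log2 ratio of all kept entries was 0.07, 0.00 and 0.01 at the 3 ages, so the centre of all entries lay near 0.

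**Figure D4:**
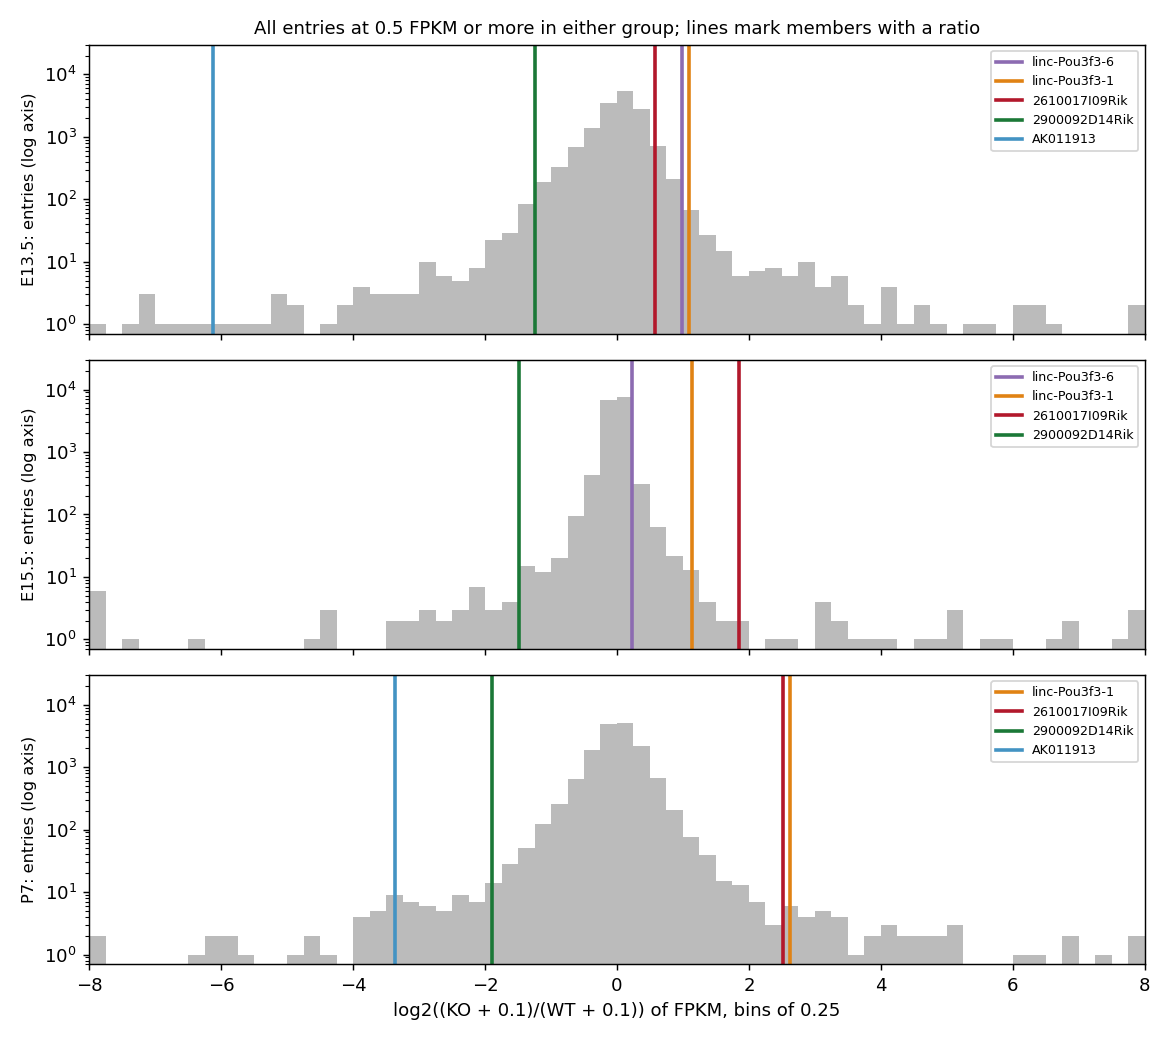
Number of entries (log axis) by log2((KO + 0.1)/(WT + 0.1)) of FPKM, in bins of 0.25, for all entries kept in each of 3 comparisons, with lines at the noncoding entries for which neither group was listed at 0; values past 8 are drawn in the outermost bins. 2610017I09Rik lies at 0.57, 1.85 and 2.51 in the 3 panels, and 2900092D14Rik at -1.24, -1.48 and -1.90.

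Between E13.5 and E15.5, both telencephalon, none of the 6 passed a 2-fold difference in wild type, where 4.91% of 15631 entries were higher and 4.47% lower at E15.5. linc-Brn1b (1.60 to 2.50 FPKM) and linc-Pou3f3-6 (4.22 to 6.57 FPKM) were each 1.56 times as high at E15.5, and AK011913 differed by under 1%. In knockout, 1 of 4 kept entries passed it, 2610017I09Rik, from 245 to 689 FPKM, where 5.24% of 15680 entries were higher and 3.81% lower. Its log2 difference between the ages was 1.49 in knockout and 0.21 in wild type, and whether these differ was not tested. The E13.5 knockout value comes from libraries with near-0 Y-linked genes and the E15.5 knockout value from libraries with little Ttr, as above. P7 levels, from another tissue, were lower in wild type than at either embryonic age for all 6.

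Another 20 entries started within 1 Mb of linc-Brn1b, of which 8 were kept at each age. Of these, Pou3f3 was past the fold at all 3 ages (log2 -1.16, -1.50 and -1.95) and no other entry was. The remaining 7, among them Mrps9, which encodes a mitochondrial ribosomal protein, Tgfbrap1, a receptor-associated protein, and Nck2, a signalling adaptor, ranged from -0.54 to 0.23 at E13.5, from -0.35 to 0.02 at E15.5 and from -0.21 to 0.34 at P7. Mrps9, 138 kb beyond linc-Brn1b, was listed at 20.6 (wild type) and 20.8 FPKM (knockout) at E15.5. linc-Mrps9-1, chosen after its values were seen, lies 25.6 kb beyond linc-Brn1b and stayed under 0.5 FPKM throughout. It was listed at 0.0917 and 0.00317 FPKM at E13.5, 0.169 and 0.00607 FPKM at E15.5, and 0.393 and 0.00510 FPKM at P7, so that the knockout held 3.45%, 3.59% and 1.30% of the wild-type value.

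**Figure D5:**
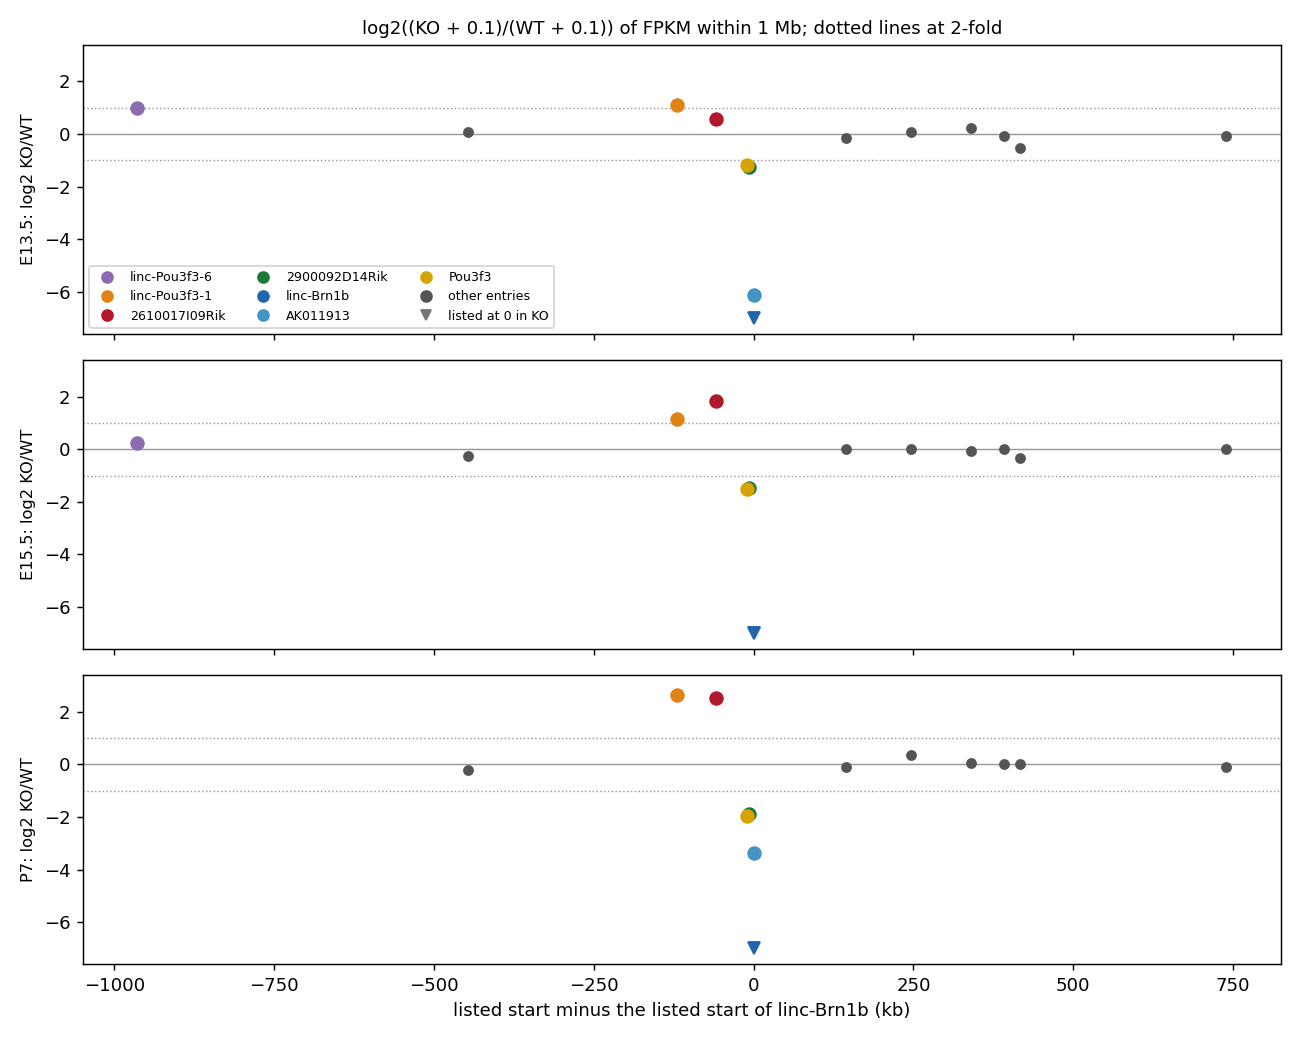
log2((KO + 0.1)/(WT + 0.1)) of FPKM, 1 panel per age, for kept entries within 1 Mb, against the distance in kb of their listed start from that of linc-Brn1b; coloured points are the noncoding entries and Pou3f3, grey points other entries, triangles entries listed at 0 in the knockout (drawn at -7), and dotted lines a 2-fold difference. Pou3f3 and 2900092D14Rik overlie each other below -1 and the other entries lie between -0.54 and 0.34.

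The paralogs of Pou3f3, which encode related POU-domain factors, lay inside a 2-fold difference at all 3 ages. Pou3f2 (Brn2) was listed at 20.2 (wild type) and 30.6 FPKM (knockout) at E13.5, 27.4 and 29.9 FPKM at E15.5, and 5.46 and 7.71 FPKM at P7. Pou3f1 lay between 88.2% and 111% of its wild-type level in the knockout, and Pou3f4 between 115% and 122%.

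Likeness of pattern was taken as Pearson's correlation of log2(FPKM + 0.1) over the 6 groups, which share libraries and normalisation, among 15442 entries at 1 FPKM or more in at least 1 group. For 2900092D14Rik the most alike entry of all was Pou3f3 (r = 0.984), followed by Ubfd1 (0.952) and Ggta1 (0.949). For linc-Brn1b and AK011913 it was the other of the pair (0.984). The next for both was Capn11, a calpain gene on chromosome 17, at 0.973 and 0.950. Capn11 was listed at 1.04, 1.19 and 0.671 FPKM in wild type and at 0.0357, 0.169 and 0.0716 FPKM in knockout. The third was Nanos3 (0.854) for linc-Brn1b and Dll4 (0.877) for AK011913.

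For 2610017I09Rik the 3 most alike were dj-1 (0.927), Phlda1 (0.923) and linc-Pou3f3-1 (0.902), and for linc-Pou3f3-1 they were Phlda1 (0.960), Fjx1 (0.950) and Wdr91 (0.934), with 2610017I09Rik at rank 10. Correlation ignores the size of a difference, since Phlda1 lay between 7.01 and 7.62 FPKM in the 6 groups. For linc-Pou3f3-6, Cnot7, Birc2 and Eif2ak3 each reached 0.999, and none of the 3 stayed among the most alike with a pseudocount of 1 FPKM. The correlation of 2610017I09Rik was -0.364 with Pou3f3 and -0.507 with 2900092D14Rik.

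In the tables of the other strains, 2610017I09Rik and 2900092D14Rik were the 2 of the 6 listed by name at these positions. There they share 1 merged span (chr1:42704767-42783004) with Pou3f3, linc-Mrps9-2 and linc-Pou3f3-AS, and a lincRNA name can mark another place: linc-Pou3f3-1 is listed at chr1:42549298-42550993. In E18.5 brain of the Peril strain, 2610017I09Rik was listed at 75.3 (wild type) and 74.3 FPKM (knockout), and 2900092D14Rik at 10.9 and 12.7 FPKM. Neither was past the fold, where 1.29% of 16554 entries were higher and 0.912% lower in the knockout. Y-linked genes differed between genotypes in this strain too, with a summed level of 0.0256 (wild type) and 26.4 FPKM (knockout). The level over Pou3f3 was 26.4% and 29.7% for 2900092D14Rik and 1.82 and 1.74 times for 2610017I09Rik.

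At the span of linc-Pou3f3-6, the Peril table lists linc-Pou3f3-3, at 1.04 and 1.84 FPKM, and at that of linc-Pou3f3-1 it lists linc-Mfsd9-5, at 1.47 and 0.852 FPKM. In E14.5 lung of the Fendrr strain, 2610017I09Rik was listed at 0 in both genotypes. 2900092D14Rik was listed there at 0.245 (wild type) and 0.0353 FPKM (knockout), under the level at which differences were counted. Pou3f3 was also under that level in lung, at 0.430 and 0.187 FPKM. The level of 2900092D14Rik over Pou3f3 was 56.9% and 18.9% there, so the proportion was not alike in both genotypes at these low values. linc-Pou3f3-AS, named after its values were seen, was listed over the same span. Its level was 1.07 (wild type) and 0.425 FPKM (knockout) in lung, a log2 ratio of -1.15, and 29.2 and 35.9 FPKM in Peril brain (0.30). Of 16072 entries kept in lung, 1.62% were higher and 1.12% lower in the knockout. Y-linked genes summed to 33.6 (wild type) and 0 FPKM (knockout) in lung, so sex and genotype cannot be told apart there. The 2 listed erythroid genes summed to 1169 and 644 FPKM in lung. The lung libraries held the lung epithelium genes Nkx2-1, Sftpc and Sftpb at a summed 906 and 943 FPKM, and Emx1, Emx2, Lhx2, Dlx1 and Dlx2 each at 0.355 FPKM or less. The tables were normalised separately, so levels are not compared between strains.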

How the data were processed

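Reads were mapped by the authors to the mm9 genome (TopHat2), transcripts were assembled (Cufflinks 2.0.2), and Cuffdiff2 gave the deposited FPKM, 1 value per group, in 3 tables. The libraries were made with a kit that is not stated to keep strand. Columns of the authors' own comparisons (fold changes, test statistics, p- and q-values) were not used. There were 0 columns of values per library, so no spread, interval or test was computed. Listed starts count from 0, and 1 was added. Log2 ratios used a pseudocount of 0.1 FPKM, which understates differences of low entries. Entries were kept at 0.5 FPKM or more in at least 1 group, and differences were counted at an absolute log2 ratio of 1. Named genes were the 6 entries, Pou3f1 to Pou3f4, neighbours within 1 Mb past the fold, and the 3 entries most alike in pattern to each. Other neighbours, linc-Mrps9-1 and the entries at these positions in the other tables were named after their values were seen. The entries and lists were chosen with earlier results of these data known, and some listed markers are not reported here. Oligonucleotides were matched to NCBIM37 on both strands without mismatches, and promoter shares come from RefSeq (GRCm38.p6). Counts were made with Python 3.11.15, pandas 2.3.3 and numpy 2.4.6 and tested on simulated data. Alternatives were other pseudocounts, filters, fold thresholds, windows and centring on the median.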

Additional observations from a re-analysis of the deposited data

How the results depend on the processing

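With 1 value per group, no result has an error, and low levels such as those of linc-Pou3f3-1 and linc-Brn1b rest on an unknown number of reads. No paired analysis was possible because the tables hold no values per library, and leaving out a replicate was not run for the same reason. At an absolute log2 ratio of 2, 2 of the 6 entries were past the fold at E13.5 and 2 at E15.5, against 4 and 5 at a ratio of 1. Each time these were linc-Brn1b and AK011913, both on the deleted gene. Of all kept entries at a ratio of 2, 0.393% were higher and 0.400% lower at E13.5, and 0.163% and 0.202% at E15.5. Between the knockout ages 0 of the 6 were past it, against 1, where 0.682% of all kept entries were higher and 0.867% lower. Without the filter on low values, 1 entry (2900092D14Rik) was past the fold in Fendrr lung, against 0, where 1.20% of all entries were higher and 1.04% lower. At a ratio of 0.5, 2 of the 6 entries were past the fold between the wild-type ages, against 0. Of all kept entries there, 16.8% were higher and 13.9% lower. The alternatives for the comparison of ages were chosen after seeing the data. Ratios were taken only where neither group was listed at 0, which leaves out linc-Brn1b at all 3 ages and AK011913 at E15.5. Of 70 such log2 ratios of the other entries and ages under other pseudocounts, filters and centring, 0 changed sign while past the fold, 63 stayed on their side of the 2-fold line and within 1.5 times, and the 7 others, of linc-Pou3f3-1 and AK011913, moved with the pseudocount. The call of linc-Brn1b at P7 was lost with a pseudocount of 1 FPKM and with entries kept at 1 FPKM or more (4 entries past the fold, against 5). Of all kept entries at P7, 0.435% were higher and 0.514% lower with that pseudocount, and 0.950% and 1.34% with that filter. Summing the entries that overlap linc-Brn1b left its knockout level under 1% of wild type at all 3 ages. Windows of 0.5 and 2 Mb left 1 neighbour past the fold at each age, Pou3f3. Of the 18 most alike entries, 12 stayed with a pseudocount of 1 FPKM.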
